A study of Mus musculus with 6 samples.

Results

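The genes described here code for the initiation and elongation factors of cytoplasmic translation, with the proteins that inhibit, transport or methylate them. They were taken from the deposited table by symbol, as every row whose name begins with Eif and a digit from 1 to 6 or with Eef and a digit of 1 or 2. The eIF2 kinases (symbols beginning Eif2ak) and Eif2s3y were left out. The rule chose 63 of 13283 genes, 50 with an Eif and 13 with an Eef symbol, and used no measured value. All 63 passed the filter on low values, a signal of 10 or more in 3 or more libraries, which 12507 genes of the table passed.

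The libraries came from BAT cells, an immortalized mouse brown preadipocyte line that stably carries Cas9, after adipogenic differentiation in culture. The comparison asked what loss of MICT1, a microprotein of brown fat, does to gene expression in these cells. In 3 cultures (MICT1 KO) the gene had been targeted with MICT1 sgRNAs, and in the other 3 (Scr, genotype WT in the sample labels) the cells carried a scrambled sgRNA. All 6 cultures received 10 µM forskolin, an activator of adenylyl cyclase, for 6 h on day 6 of differentiation, so that no culture without forskolin was compared. The study made 2 independent KO pools, each a mixed population and not a clone, and the labels do not tell which pool a library came from. The level of MICT1 itself was not analysed here. Each group is of 1 cell line, and p-values cover the spread between these cultures. The libraries held an estimated 15445783 to 17925616 reads. The values are the authors' normalized signal, read here as estimated reads divided by a factor for each library, and levels were compared between genes only as RPKM (signal per kilobase of exon and scaled to the library sum).

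Translation begins when eIF2 brings the initiator tRNA to the small ribosomal subunit, which eIF1, eIF1A, eIF3 and eIF5 prepare for scanning, while eIF4E, eIF4G and the helicase eIF4A bind the cap and unwind the leader of the mRNA. eIF2B recharges eIF2 with GTP, eIF5B joins the large subunit, eEF1A then delivers each aminoacyl-tRNA and eEF2 moves the ribosome by a codon. The kinase eEF2K inhibits eEF2, the 4E-binding proteins inhibit eIF4E under the control of mTORC1, and in adipocytes cAMP is known to activate eEF2K through PKA.

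Sequence upstream of 6 members is shown first, since these genes carry the main findings: the abundant elongation factor that rose (Eef1a1), the most abundant initiation factor (Eif1), the largest rise (Eif4g3) and the largest fall (Eef2k) among the members that passed the test, an abundant helicase cofactor that fell (Eif4b) and the translocase (Eef2). Each run holds the 150 bases before the start of a RefSeq transcript on GRCm38.p6, written 5′ to 3′ on the strand of the gene. Capitals mark a CRE half-site (TGACG or its complement CGTCA), the E-box CACGTG, the ETS core CCGGAA (complement TTCCGG) or the TATA box TATAAA (complement TTTATA). Eef1a1 lies on the minus strand at chr9:78481725-78481874, Eif1 on the plus strand at chr11:100319799-100319948 and Eif4g3 on the plus strand at chr4:137993305-137993454. Eef2k lies on the plus strand at chr7:120842681-120842830, Eif4b on the plus strand at chr15:102073623-102073772 and Eef2 on the plus strand at chr10:81176481-81176630.
Eef1a1: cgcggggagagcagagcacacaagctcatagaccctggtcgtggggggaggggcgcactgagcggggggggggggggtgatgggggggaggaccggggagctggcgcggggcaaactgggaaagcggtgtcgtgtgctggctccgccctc
Eif1: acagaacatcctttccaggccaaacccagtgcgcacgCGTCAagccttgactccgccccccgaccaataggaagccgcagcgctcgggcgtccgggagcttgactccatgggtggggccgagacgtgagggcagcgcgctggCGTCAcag
Eif4g3: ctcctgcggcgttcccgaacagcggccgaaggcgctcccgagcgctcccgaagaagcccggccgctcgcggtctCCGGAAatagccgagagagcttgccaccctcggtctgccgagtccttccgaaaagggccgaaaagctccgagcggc
Eef2k: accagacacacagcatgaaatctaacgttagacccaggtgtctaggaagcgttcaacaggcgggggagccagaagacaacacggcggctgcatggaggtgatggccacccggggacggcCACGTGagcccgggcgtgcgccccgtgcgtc
Eif4b: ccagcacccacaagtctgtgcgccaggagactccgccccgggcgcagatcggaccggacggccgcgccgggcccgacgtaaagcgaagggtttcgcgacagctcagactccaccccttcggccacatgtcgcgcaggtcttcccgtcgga
Eef2: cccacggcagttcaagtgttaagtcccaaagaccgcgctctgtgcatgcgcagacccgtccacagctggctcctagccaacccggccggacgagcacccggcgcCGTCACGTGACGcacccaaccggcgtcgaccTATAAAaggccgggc
For Eif4g3 RefSeq lists 2 and for Eef2k 3 starts, and the window of 1 start is shown. The runs of Eef1a1 and Eif4b held none of these letters. In Eef2 the E-box at bases -43 to -38 overlaps a half-site on each side, at -46 to -42 and -39 to -35, and a TATA box stands at -15 to -10. Eef2k has an E-box at -31 to -26 and a half-site at -4 to 1, which runs past the printed end and is left in lower case. Eif1 has half-sites at -113 to -109 and -8 to -4, and Eif4g3 an ETS core at -76 to -71.

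Of the 63 members 49 had a promoter in the RefSeq table, from 250 bases before to 50 after the start, among them 21 that fell and 9 that rose in MICT1 KO libraries. On either strand, a CRE half-site was found in 44.9% of these 49 windows, against 21.02% of all 27025 promoters and 32.6% of the 9995 promoters of tested genes. The E-box was in 26.5% (7.24% of all and 10.4% of tested genes), the ETS core in 40.8% (15.2% and 29.1%) and the TATA box in 8.16% (14.2% and 6.97%). The full palindromic CRE, TGACGTCA, which contains a half-site on each strand, was found in 1 member, Eef2, at bases 3 to 10 after the start. It was in 1.88% of all promoters and 3.34% of those of tested genes. Of the 22 members with a half-site 10 fell, 4 rose and 8 did not pass the test, and of the 13 with an E-box 5 fell, 2 rose and 6 did not pass. These matches describe the letters in the windows and not binding.

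Across the 63 members, 27 fell and 9 rose in MICT1 KO relative to Scr libraries, and 27 did not pass the test (limma-trend on log2(value + 1), Benjamini-Hochberg adjusted p under 0.05 over all genes tested). Of all genes tested 56.9% passed, 28.3% as lower and 28.5% as higher. The members therefore passed about as often as other genes, 36 of 63, with a larger share of them lower (42.9%) and a smaller share higher (14.3%). Their median log2 fold change was -0.14, against -0.01 over all genes tested. Their median absolute log2 fold change was 0.22, against 0.33. Only 5 members passed with a change of at least 1.5-fold, as 25.8% of all genes did, namely Eef2k, Eif4b, Eif3e and Eef2kmt, which fell, and Eif4g3, which rose. The 3 values of each group did not overlap for 32 lower and 9 higher members, 65.1% of them, and for 62.0% of all genes. Members with an Eif symbol fell in 23 and rose in 7 of 50 cases, and those with an Eef symbol fell in 4 and rose in 2 of 13.

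**Figure D1:**
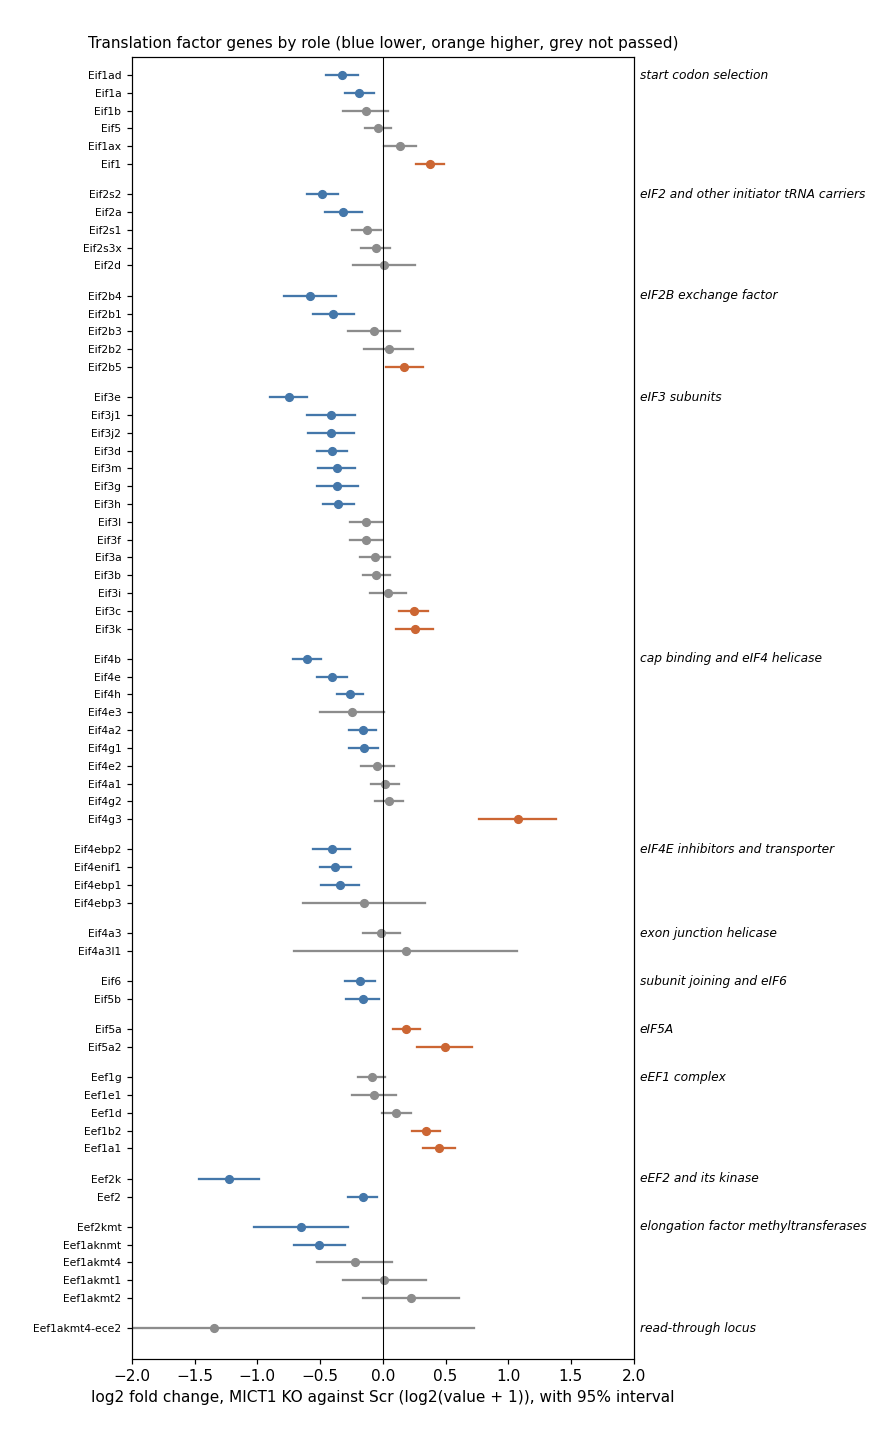
Log2 fold change (x axis, MICT1 KO against Scr, on log2(value + 1), 3 libraries a group) of the 63 members, grouped by role on the y axis. Points are estimates and bars 95% intervals from limma-trend. Blue points (27) fell, orange points (9) rose and grey points (27) did not pass. Most lie between -0.6 and 0.5. Of the 9 rises 6 were smaller than that of Eef1a1 and so turn negative relative to it. Of these, Eef1b2 and Eif1 do not pass as lower. The interval of the weakly expressed read-through gene Eef1akmt4-ece2 runs past the left edge to -3.42.

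Eef1a1, which codes for the tRNA carrier eEF1A and was the reference gene of the RT-qPCR in the methods, was the highest member per length, at a mean of 2819 RPKM over the 6 libraries. Its values were 94439, 97848 and 99221 in Scr against 139250.0, 127938 and 130355 in MICT1 KO libraries. Every MICT1 KO library stood above every Scr library. Eef1a1 rose 1.36-fold (log2 fold change 0.45, standard error 0.061, 95% interval 0.32 to 0.57, limma-trend adjusted p = 2.61e-06). When libraries were left out in turn its log2 fold change stayed between 0.41 and 0.47. Of the 50-base windows along its transcript 59.2% also occur in transcripts of 20 other genes in GENCODE, so its value depends on how the reads of these copies were assigned.

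The rise of Eef1a1 bears on every value that is set relative to it. In the deposited scaling, and with library size or the trimmed mean of M values in its place, the median log2 fold change of all genes tested was within 0.01 of 0. With each library scaled to its Eef1a1 value, a choice made after seeing the data, that median was -0.45. The members then had a median of -0.58, and 55 were lower and 1, Eif4g3, was higher. Of all genes tested 61.4% were lower and 10.5% higher in that scaling. Of the 9 members that rose in the deposited scaling, Eef1b2, Eif1, Eif2b5, Eif3c, Eif3k and Eif5a had negative changes relative to Eef1a1. Those of Eef1b2 and Eif1 did not pass (limma-trend adjusted p = 0.0797 and 0.231). All of these members rose less than Eef1a1, so the negative sign follows from the construction of that scaling. It is no separate test of their rises. All other values below are in the deposited scaling unless they are given as relative to Eef1a1.

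Besides Eef1a1 1 of the 4 other genes listed with the eEF1 complex rose, Eef1b2, whose change relative to Eef1a1 was -0.10 and did not pass. Eef1b2, the exchange factor that reloads eEF1A with GTP, had values of 7272, 7367 and 7755 in Scr against 9761, 9144 and 9531 in MICT1 KO libraries, and rose with all 3 above the Scr values (log2 fold change 0.34, limma-trend adjusted p = 9.67e-06). The other subunits of the exchange complex did not pass, with log2 fold changes of 0.11 for Eef1d (limma-trend adjusted p = 0.107) and -0.09 for Eef1g (0.158). Eef1e1, a scaffold protein of the aminoacyl-tRNA synthetase complex, had -0.07 (0.494).

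Eef2, the translocase and the second highest member at 1052 RPKM, went the other way. It had values of 58063, 61308 and 61546 in Scr against 55598, 52786 and 53588 in MICT1 KO libraries. The groups did not overlap, but the step was small, 1.12-fold lower (log2 fold change -0.16, limma-trend adjusted p = 0.0202). The call was lost without control replicate 2 (-0.15, adjusted p = 0.0786), control replicate 3 (-0.14, 0.0666), KO replicate 2 (-0.14, 0.0709) or KO replicate 3 (-0.15, 0.0833, all from limma-trend). Eef2k, the kinase that phosphorylates and inhibits eEF2, had the largest fall among the members that passed. Its values were 504, 503 and 467 in Scr against 233, 196 and 201 in MICT1 KO libraries, and the MICT1 KO values lay far below all Scr values. It fell 2.34-fold (log2 fold change -1.23, standard error 0.116, limma-trend adjusted p = 1.22e-08).

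Enzymes that methylate the elongation factors were expressed at low levels. Eef2kmt, a lysine methyltransferase of eEF2, had values of 157, 143 and 137 in Scr against 102, 86.9 and 87.4 in MICT1 KO libraries. It fell 1.57-fold without overlap between the groups (log2 fold change -0.65, limma-trend adjusted p = 0.00413). The signal of Eef2kmt came to a whole number of estimated reads in 0 of 6 libraries, so its values hold fractions of reads. Eef1aknmt, which methylates eEF1A, fell as well, with a log2 fold change of -0.51. The 3 other eEF1A lysine methyltransferases had log2 fold changes of -0.23 to 0.22, and none passed. Eef1akmt4-ece2, a read-through gene that shares exons with Eef1akmt4, was close to the floor at 12.7, 1.71 and 12.3 in Scr against 15.3, 0.356 and 0.350 in MICT1 KO libraries, and reads of the 2 genes cannot be told apart over the shared exons. It passed only without KO replicate 1 (log2 fold change -2.54, limma-trend adjusted p = 0.0449), and in the whole data its log2 fold change was -1.35 (adjusted p = 0.261).

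**Figure D2:**
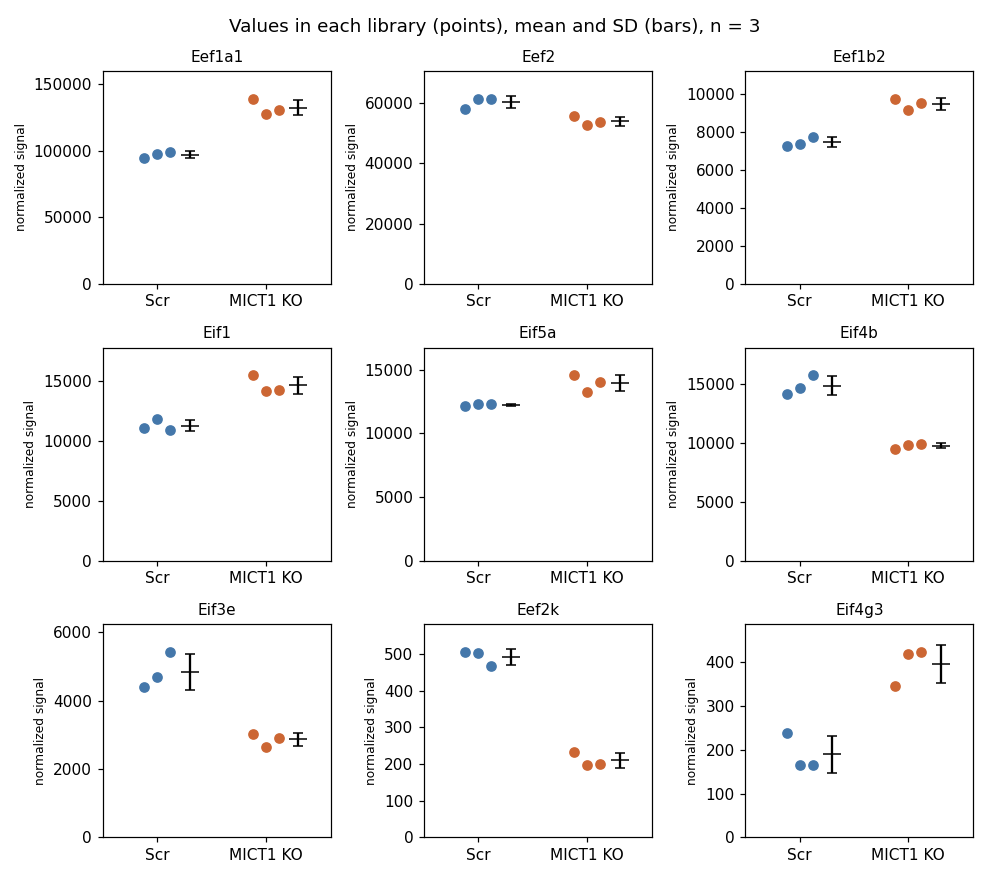
Normalized signal (y axis, from 0) of 9 members in each of the 3 Scr (blue) and 3 MICT1 KO (orange) libraries, with the mean and SD of each group as a bar. The MICT1 KO points lie above all Scr points for Eef1a1, Eef1b2, Eif1, Eif5a and Eif4g3, and below them for Eef2, Eif4b, Eif3e and Eef2k. Eef1b2, Eif1 and Eif5a rose less than Eef1a1, so their mean changes relative to it are negative. Those of Eef1b2 and Eif1 do not pass.

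Among the factors that select the start codon Eif1 rose, by less than Eef1a1 (-0.07 relative to it), while the relatives of Eif1 fell or did not pass. Eif1, which keeps the scanning ribosome from stopping at poor start sites, had values of 11058, 11796 and 10947 in Scr against 15476, 14178 and 14281 in MICT1 KO libraries. It rose 1.30-fold without overlap (log2 fold change 0.38, limma-trend adjusted p = 5.05e-06), and at 378 RPKM it was the highest initiation factor. Eif1b, its close paralog, had 1271, 1509 and 1585 in Scr against 1499.6, 1240.1 and 1235 in MICT1 KO libraries, with overlap between the groups (log2 fold change -0.14, adjusted p = 0.193). It passed as lower without control replicate 1 (-0.23, adjusted p = 0.0352) or KO replicate 1 (-0.23, 0.0255, all from limma-trend). The genes of eIF1A on an autosome, Eif1a, and on the X chromosome, Eif1ax, had changes of opposite sign. Eif1a had 3318, 3245 and 3111 in Scr against 2899, 2727 and 2872 in MICT1 KO libraries and fell (log2 fold change -0.19, limma-trend adjusted p = 0.00759). Eif1ax had 2847, 2889 and 3069 in Scr against 3219, 3039.7 and 3432 in MICT1 KO libraries, and its log2 fold change of 0.14 did not pass (limma-trend adjusted p = 0.0560). Without control replicate 3 (0.17, adjusted p = 0.0352) or KO replicate 2 (0.18, 0.0224) Eif1ax passed as higher. Eif1ad, which carries an eIF1A-like domain, fell (-0.32), and Eif5, the GTPase activator of eIF2, had -0.04 and did not pass.

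Of the 3 eIF2 subunit genes 1 passed. Eif2s2, which codes for the beta subunit, had values of 4434, 4261 and 4627 in Scr against 3223, 2950.2 and 3358 in MICT1 KO libraries. All MICT1 KO values lay below all Scr values, and Eif2s2 fell 1.40-fold (log2 fold change -0.48, limma-trend adjusted p = 5.99e-07). Eif2s1, the alpha subunit that the eIF2 kinases phosphorylate, had a log2 fold change of -0.13 and did not pass (limma-trend adjusted p = 0.0561), although its groups did not overlap. It passed without KO replicate 3 (-0.16, adjusted p = 0.0464). Eif2s3x, the gamma subunit, had -0.06 (95% interval -0.17 to 0.06). Of the alternative initiator tRNA carriers, Eif2a fell (-0.32, limma-trend adjusted p = 0.000704) and Eif2d had 0.01.

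In eIF2B, the exchange factor of eIF2, 2 of 5 subunit genes fell and 1 rose (that 1 with a change of -0.28 relative to Eef1a1). Eif2b4 had values of 668, 592 and 744 in Scr against 463, 412 and 458 in MICT1 KO libraries. It fell without overlap to 0.668 of the Scr level, just short of a 1.5-fold change (log2 fold change -0.58, limma-trend adjusted p = 4.08e-05). Eif2b1 fell by 0.39 on the log2 scale. Eif2b5, the catalytic subunit, went against them with 949, 1032 and 969.8 in Scr against 1101, 1137 and 1080.1 in MICT1 KO libraries, a 1.13-fold rise near the threshold (limma-trend adjusted p = 0.0458). That call was lost with the replicate number as a block (adjusted p = 0.0550). It was also lost without control replicate 1 (log2 fold change 0.14, adjusted p = 0.143), control replicate 3 (0.16, 0.0962), KO replicate 1 (0.17, 0.0681), KO replicate 2 (0.15, 0.118) or KO replicate 3 (0.19, 0.0641, all from limma-trend). Eif2b2 (0.05) and Eif2b3 (-0.07) did not pass.

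eIF3, the large scaffold that holds the small subunit and the mRNA together, was the largest group with 14 subunit genes, of which 7 fell, 2 rose and 5 did not pass. Eif3e fell most. Its values were 4400.5, 4685 and 5419 in Scr against 3033, 2645 and 2918 in MICT1 KO libraries, with no overlap (1.68-fold lower, log2 fold change -0.75, limma-trend adjusted p = 1.11e-08). Eif3h, the fifth highest member at 245 RPKM, had 6738, 7383 and 7629.9 in Scr against 5887, 5274 and 5817 in MICT1 KO libraries and fell 1.28-fold (limma-trend adjusted p = 3.06e-05). The falls of Eif3d, Eif3g and Eif3m lay close to that of Eif3h, with log2 fold changes of -0.40, -0.36 and -0.37. Eif3c and Eif3k rose, each 1.19-fold, by less than Eef1a1 (-0.20 and -0.19 relative to it). Eif3c, a core subunit, had 5095, 5263 and 4989 in Scr against 6535, 5799 and 5895 in MICT1 KO libraries (limma-trend adjusted p = 0.000870). Eif3k had 1696, 1922 and 1975 in Scr against 2345, 2039.8 and 2284 in MICT1 KO libraries (limma-trend adjusted p = 0.00419). Neither overlapped between the groups.

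The core subunits Eif3a and Eif3b, which hold the complex together, had log2 fold changes of -0.06 (95% interval -0.18 to 0.06) and -0.05 (-0.16 to 0.05). Eif3f (-0.13), Eif3i (0.04) and Eif3l (-0.13) did not pass either. Eif3f passed as lower without control replicate 1 (-0.17, adjusted p = 0.0349) or KO replicate 1 (-0.19, 0.00996), and Eif3l without KO replicate 1 (-0.18, 0.0239, all from limma-trend). Eif3e, Eif3h and Eif3m share windows of 50 bases with other genes over 22.0%, 26.2% and 37.3% of their transcripts. Eif3j1 and Eif3j2 code for nearly the same loosely bound subunit and cannot be told apart. Eif3j1 had 629, 687 and 747 in Scr against 514, 489 and 544 in MICT1 KO libraries, and the ratio of Eif3j1 to Eif3j2 was 0.922 in both groups with next to no spread. Of the Eif3j2 windows 91.9% occur elsewhere, most in Eif3j1, so that the fall of both (log2 fold change -0.41 each) counts as 1 measurement.

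**Figure D3:**
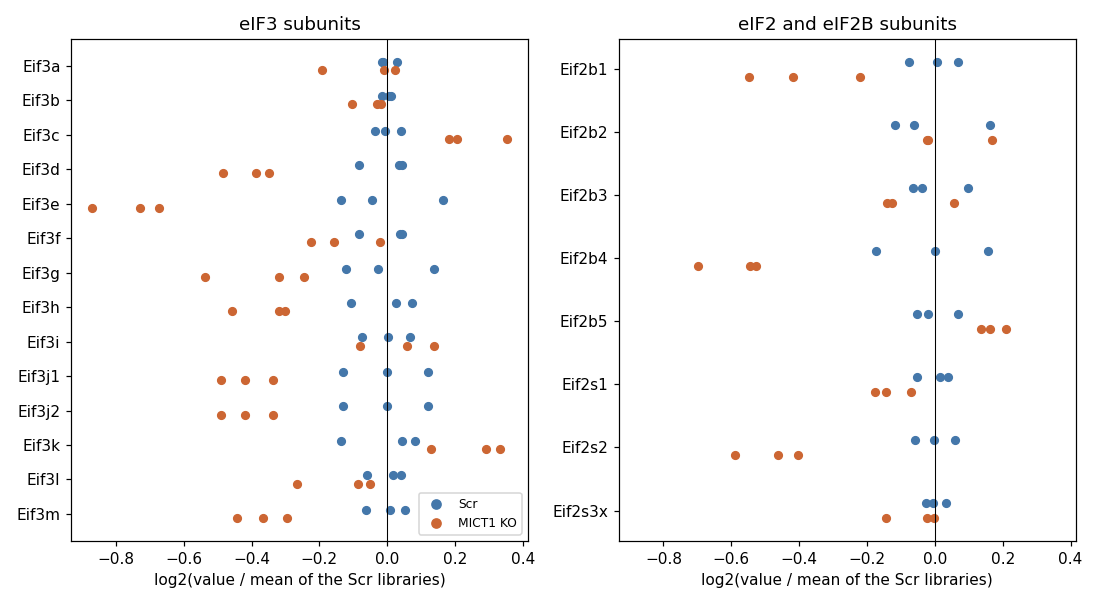
Signal of each subunit gene of eIF3 (left) and of eIF2 and eIF2B (right) in each library, as log2 of the value over the mean of the 3 Scr libraries (x axis). Blue points are the Scr and orange points the MICT1 KO libraries. Eif3e, Eif2b4 and Eif2s2 lie farthest to the left in MICT1 KO, while Eif3c, Eif3k and Eif2b5 lie to the right of all their Scr points. The rises of Eif3c, Eif3k and Eif2b5 were smaller than that of Eef1a1, so relative to it they are negative.

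Cap binding and unwinding was the second largest group, with 10 genes, of which 5 fell and 1, Eif4g3, rose. Eif4b, the cofactor that stimulates the helicase eIF4A, had values of 14145, 14604 and 15716 in Scr against 9506, 9799.8 and 9921 in MICT1 KO libraries. It fell 1.52-fold without overlap (log2 fold change -0.60, limma-trend adjusted p = 4.83e-09). Eif4h, a smaller protein with a related function, fell too (-0.26, limma-trend adjusted p = 0.000147). Eif4e, the cap-binding protein itself, had 4702, 4898 and 5004 in Scr against 3882, 3511 and 3642 in MICT1 KO libraries and fell 1.32-fold (limma-trend adjusted p = 2.93e-06). Its relatives did not pass. Eif4e2, which binds the cap but represses translation, had 1751, 1793 and 1889 in Scr against 1699.8, 1729 and 1842 in MICT1 KO libraries (log2 fold change -0.04). Eif4e3 had 321, 299 and 268 in Scr against 257, 238 and 252 in MICT1 KO libraries (log2 fold change -0.25, limma-trend adjusted p = 0.0978), lower without overlap but with a wide interval of -0.50 to 0.01.

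The eIF4G scaffold family has 3 genes. Eif4g3, a paralog of Eif4g1 expressed at a low level, had 238, 165 and 165 in Scr against 345, 419 and 423 in MICT1 KO libraries. It rose 2.11-fold without overlap (95% interval 1.70 to 2.61, log2 fold change 1.08, limma-trend adjusted p = 2.77e-06), the largest rise among the members. Eif4g1, the main scaffold, had 17731, 17584 and 18422 in Scr against 15020.1, 16492 and 16844 in MICT1 KO libraries and fell slightly (log2 fold change -0.15, limma-trend adjusted p = 0.0222). The call on Eif4g1 was lost without control replicate 3 (-0.13, adjusted p = 0.0777) or KO replicate 1 (-0.10, 0.103, from limma-trend). Eif4g2, which lacks the eIF4E-binding site and serves cap-independent initiation, had 24376, 24416 and 25567 in Scr against 26065, 25809.9 and 25094 in MICT1 KO libraries, with overlap (log2 fold change 0.05, 95% interval -0.06 to 0.16). At 1.62 RPKM on average Eif4g3 stood far below Eif4g1 (143 RPKM) and Eif4g2 (152 RPKM).

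The helicase of the cap complex has 2 genes. Eif4a1 had 6307, 6503 and 6734 in Scr against 6881, 6334 and 6528 in MICT1 KO libraries (log2 fold change 0.01, 95% interval -0.10 to 0.13), although 65.3% of its windows occur in other genes. Eif4a2 had 4742, 4735 and 4665 in Scr against 4185, 4327 and 4139 in MICT1 KO libraries and fell (-0.16, limma-trend adjusted p = 0.0119), but not without KO replicate 3 (-0.15, adjusted p = 0.0530). Eif4a3, the related helicase of the exon junction complex, had a log2 fold change of -0.01. Its intronless copy Eif4a3l1 was barely expressed, with 25.7, 23.2 and 16.3 in Scr against 36.2, 12.6 and 31.1 in MICT1 KO libraries, and no difference was detectable at this depth.

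Of the 4 genes for proteins that bind and restrain or carry eIF4E, 3 fell. Eif4ebp2 had values of 1794, 1835 and 2066 in Scr against 1363, 1529 and 1398 in MICT1 KO libraries (log2 fold change -0.41, limma-trend adjusted p = 4.38e-05). Eif4ebp1, the form best known from adipocytes as an insulin-regulated inhibitor, had 2207, 2280.4 and 2218 in Scr against 1938, 1548 and 1821 in MICT1 KO libraries (-0.34, limma-trend adjusted p = 0.000388). Neither overlapped between the groups. Eif4enif1, which carries eIF4E into the nucleus, fell by 0.38 on the log2 scale. Eif4ebp3 was low, at 69.2, 115 and 94.6 in Scr against 99.1, 82.2 and 67.4 in MICT1 KO libraries, and did not pass. Eif4e and its 2 main inhibitors therefore all had lower mRNA levels in MICT1 KO libraries.

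The late steps of initiation moved little. Eif6, which keeps free large subunits from joining, had 2371, 2482 and 2484 in Scr against 2235, 2105 and 2119 in MICT1 KO libraries and fell 1.14-fold (limma-trend adjusted p = 0.0105). Eif5b, the joining factor, fell by 0.16 on the log2 scale (limma-trend adjusted p = 0.0323). Its call was lost without control replicate 2 (-0.18, adjusted p = 0.0547), control replicate 3 (-0.11, 0.158) or KO replicate 1 (-0.10, 0.175). Both genes of eIF5A, the hypusinated factor that helps ribosomes over difficult peptide bonds, rose. Relative to Eef1a1, the change of Eif5a was -0.26, and that of Eif5a2 was 0.05 and did not pass (limma-trend adjusted p = 0.721). Eif5a, the fourth highest member at 338 RPKM, had 12183, 12287 and 12314 in Scr against 14569.6, 13275 and 14045 in MICT1 KO libraries (1.14-fold, limma-trend adjusted p = 0.00454). Eif5a2, its rarer form, had 413, 502 and 530.2 in Scr against 608, 752 and 674 in MICT1 KO libraries (1.41-fold, limma-trend adjusted p = 0.000443). In neither did the groups overlap.

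Since Eef1a1 and Eef2 make up a large part of the members' signal, the members were also summed. Together they took 2.45%, 2.45% and 2.53% of the library sum in Scr, against 2.62%, 2.51% and 2.58% in MICT1 KO. The means, 2.48% ± 0.044 and 2.57% ± 0.055 (SD, n = 3), overlapped in range between the groups (exact permutation test, two-sided p = 0.2, where 3 against 3 libraries allow no p below 0.1). Beneath that sum the parts differed in direction. Eef1a1 alone took 0.594% ± 0.010 of the sum in Scr and 0.812% ± 0.032 in MICT1 KO libraries. Eef2 took 0.368% ± 0.0075 and 0.331% ± 0.0070, and the other 61 members together 1.52% ± 0.028 and 1.43% ± 0.024. In each of these 3 the groups did not overlap. Eef1a1 thus made up 24.0% of the members' signal in Scr and 31.5% in MICT1 KO libraries. Control replicate 2 carried 319163 units of Rn45s, the ribosomal RNA precursor, against 81699 to 136619 in the other libraries, and without the 20 highest other genes in the sum the members' difference was 0.090 in place of 0.096 percentage points.

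**Figure D4:**
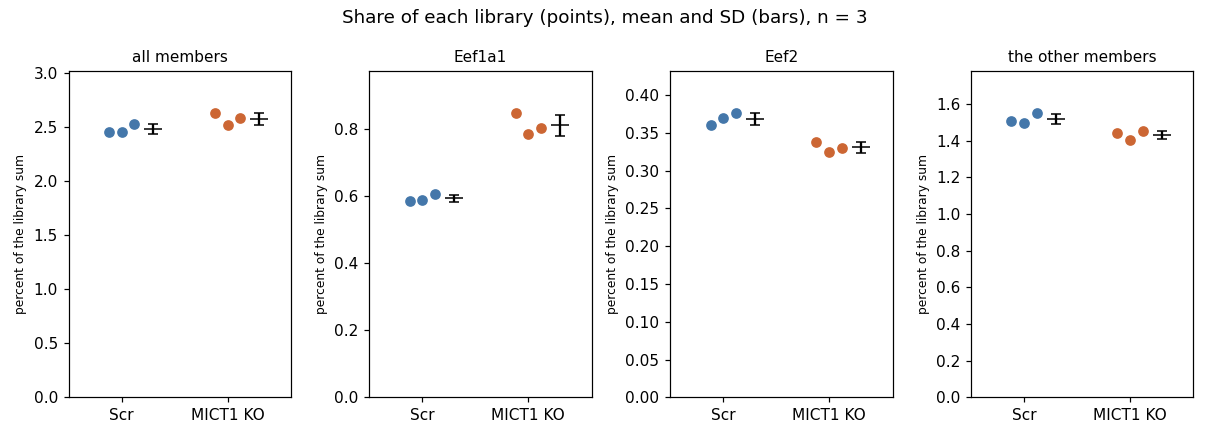
Percent of each library's summed signal (y axis, from 0) taken by all 63 members, by Eef1a1, by Eef2 and by the other 61 members, in 3 Scr (blue) and 3 MICT1 KO (orange) libraries with mean and SD. All members together overlap between the groups, Eef1a1 stands higher in MICT1 KO (0.812% against 0.594%), and Eef2 and the other members stand lower.

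Ratios between related genes within a library do not depend on how libraries are scaled. They were taken of the signal, with no correction for length, so only their change between groups was read. Of 12 listed pairs 11 were compared, and in 6 the log2 ratios of the 2 groups did not overlap. Among single genes 62.0% of all those tested did not overlap, and the share over all gene pairs was not counted. Each of the 6 pairs had the smallest p that an exact permutation test allows here, 0.1, or 0.183 after adjustment over the 11 pairs, so none passed. The ratio of Eif4g1 to Eif4g3 went from 95.5 in Scr to 40.8 in MICT1 KO libraries, the widest shift, a change of -1.23 on the log2 scale. That of Eif1 to Eif1b went from 7.77 to 11.1, and that of Eif4a1 to Eif4a2 from 1.38 to 1.56. Those of Eif1a to Eif1ax (1.10 to 0.878), Eif4e to Eif4e2 (2.69 to 2.09) and Eif4g1 to Eif4g2 (0.723 to 0.628) were lower in MICT1 KO libraries. The groups overlapped for Eif4e to Eif4e3, Eif5a to Eif5a2, Eif4ebp1 to Eif4ebp2, Eif4ebp1 to Eif4ebp3 and Eif3j1 to Eif3j2.

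**Figure D5:**
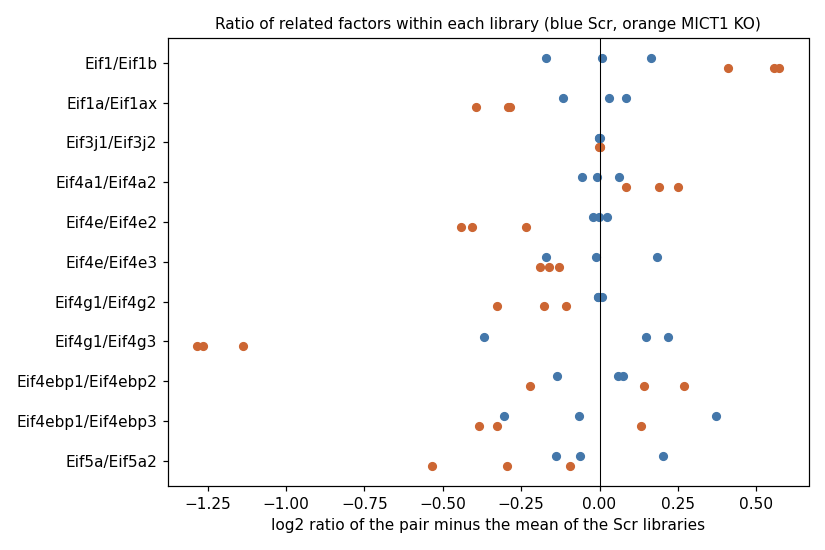
Log2 ratio of 11 pairs of related genes within each library (x axis, minus the mean of the 3 Scr libraries), with Scr in blue and MICT1 KO in orange. In 6 pairs the orange and blue points do not overlap, with the widest gap for Eif4g1/Eif4g3 (a mean shift of -1.23), and the points of Eif3j1/Eif3j2 coincide.

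The rest of the translation machinery was read from lists by role, whose counts stand against 28.3% of all genes lower and 28.5% higher. Of 10 mitochondrial translation factors 5 fell and none rose (median log2 fold change -0.26), where 56.9% of all genes passed in either direction. The largest falls were those of Gfm2, a factor of ribosome recycling, from 445 ± 15.4 to 289.7 ± 17.6 (SD, n = 3; log2 fold change -0.62), and of Guf1 at -0.48, Gfm1 at -0.38 and Tufm at -0.27. Among 9 termination and recycling factors 3 fell and 2 rose. The release factor partner Gspt2 had 86.1, 76.0 and 82.4 in Scr against 220.2, 221 and 228 in MICT1 KO libraries, a 2.72-fold rise (limma-trend adjusted p = 2.11e-07). Its far more strongly expressed paralog Gspt1 fell by 0.24 on the log2 scale. Denr rose (0.20) and Mcts2 fell (-0.42, adjusted p = 0.0410). Of 21 genes of cytosolic aminoacyl-tRNA synthetases and their scaffold 5 fell and 4 rose, led by Hars (0.51) and Lars (0.34) upward and Cars (-0.41) and Tars (-0.25) downward.

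In the mTORC1 and cap control list 10 of 21 genes fell and none rose. Mknk2, a kinase of eIF4E, had 8076, 8382 and 8365 in Scr against 5273, 5407 and 5328 in MICT1 KO libraries (log2 fold change -0.63, limma-trend adjusted p = 9.27e-10). Deptor, an inhibitory partner of mTOR, fell by 0.81, Pdcd4, an inhibitor of eIF4A, by 0.73, and Larp1, which binds 5′ TOP mRNAs, by 0.60 on the log2 scale. The genes that fell thus include both activators and inhibitors of cap-dependent translation. Mtor itself had -0.07 and Mlst8 0.12, and neither passed, while Rptor and Rheb on the same list fell (-0.53 and -0.40). The median of the list was -0.09.

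Of 6 genes for eIF2 kinases and phosphatase subunits 3 rose and 1 fell. Ppp1r15a, the stress-induced subunit that directs the phosphatase to eIF2, had 1762, 2204 and 1612 in Scr against 3919, 3643 and 3671 in MICT1 KO libraries, a 2.03-fold rise (limma-trend adjusted p = 1.08e-09). Eif2ak2 rose (0.36) and Eif2ak1 fell (-0.20). Among 9 enzymes that modify eIF5A (hypusine) or eEF2 (diphthamide) 1 fell, Dph1 (-0.74), and 1 rose, Dph3 (0.43).

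5′ TOP mRNAs, whose leaders begin with a run of pyrimidines and whose translation mTORC1 controls, include many translation factors. Of 10 known examples 4 fell (Eif3e, Eif3h, Eif4b, Eef2) and 2 rose (Eef1a1, Eef1b2), while Eef1d, Eef1g, Eif3f and Pabpc1 did not pass. The list had a median log2 fold change of -0.11, and its summed level of 14069 to 14906 CPM in Scr and 15369 to 16384 CPM in MICT1 KO libraries has Eef1a1 as its largest member.

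Several markers of cell type and of division also differed between the groups. All 10 markers of mature adipocytes fell (median log2 fold change -3.55), and their summed level was 7755 to 9397 CPM in Scr and 923 to 1330 CPM in MICT1 KO libraries. The table lists no value of 0, and the lowest signal of these markers was that of Adipoq in MICT1 KO libraries (7.63, 3.16 and 5.18). In bulk RNA fewer cells of a type and less RNA per cell cannot be told apart. Of 8 markers of dividing cells 7 rose and 1, Mcm2, fell (summed level 1853 to 2004 CPM in Scr and 2607 to 2868 CPM in MICT1 KO). Of 6 progenitor and fibroblast markers tested 3 rose, Ly6a (log2 fold change 1.39), Col1a1 (0.77) and Postn (0.37), and 2 fell, Dlk1 (-3.47) and Pdgfra (-0.19). The summed level of that list was 2196 to 2541 CPM in Scr and 3013 to 3185 CPM in MICT1 KO libraries. Its largest parts were Col1a1 (mean signal 17955 in Scr and 30595 in MICT1 KO) and Col3a1 (16430 and 15855), which did not pass. Macrophage markers (4 of 8 analysed) summed to at most 39.2 CPM, with Cd14 higher, and skeletal muscle markers (2 of 8 analysed) to at most 5.74 CPM. The part of these shifts in the changes of the translation factors was not tested.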

How the data were processed

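RNA-seq was analysed from 6 libraries, 3 Scr and 3 MICT1 KO. Groups and replicate numbers came from the sample titles. According to the methods, strand-specific libraries were made from total RNA, sequenced in pairs and placed on the NCBI38/mm10 genome by Partek software. The labels give library construction to a sequencing provider, and their processing notes also name STAR and DESeq2 without a role. The counting model, annotation and normalization are not given in the sources used here.

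The authors deposited a normalized signal per gene for 13283 genes, with every value above 0. In each library 88.7% to 90.2% of its low values (under 20) came out as whole multiples, to within 0.01, of a step specific to that library, which gave factors of 0.949 to 1.08 and 15445783 to 17925616 estimated reads. Because the values are not counts, limma-trend (limma 3.58.1, R 4.3.3) was fitted to log2(value + 1) over the 12507 genes that reached 10 in 3 or more libraries, with no covariate, and p was adjusted by Benjamini-Hochberg over all of them. Fold changes are on that scale and understate the change of low genes. Calls are at an adjusted p of 0.05 and intervals at 95%. The code was tested on simulated data. Shares and paralog ratios were compared by exact two-sided permutation tests, whose smallest p is 0.1.

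The members and lists were chosen with earlier results of these data known. The members given with a value in each library were Eef1a1, the 5 highest by RPKM, those called at 1.5-fold or more, the largest change or a call against the majority in each role list, and the paralogs. Of each pathway list at most 4 genes are named for their change, beside Mtor, Mlst8, Rptor and Rheb in the mTORC1 list. RPKM used GENCODE vM21 exon lengths. Positions and promoters are RefSeq GRCm38.p6, and windows of 50 bases were matched against GENCODE vM21 transcripts.

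Same-numbered Scr and MICT1 KO libraries did not deviate together, so the numbers were not taken to pair the samples. Alternatives were library size, the trimmed mean of M values, limma-voom, no filter, a maximum RPKM of at least 4, pseudocounts of 0.5 and 5, a replicate block, a rule of 1.8-fold with an unadjusted p under 0.05, each library left out, and, added after seeing the data, Eef1a1 scaling and the 1.8-fold rule with that RPKM limit, as the methods combine them.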

Additional observations from a re-analysis of the deposited data

How the results depend on the processing

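With library size, the trimmed mean of M values, limma-voom, no filter or another pseudocount, 27 members were lower and 9 or 10 higher, and the changes that passed kept their direction. Without one library in turn, 24 to 29 were lower and 8 or 9 higher, and of the 36 members that passed, 31 did so in every such fit. The 5 others were Eef2, Eif2b5, Eif4g1, Eif4a2 and Eif5b. The log2 fold change of Eef1a1 was 0.41 to 0.47 in these fits. Eif1ax, at 0.14, passed with library size (adjusted p = 0.0497 from limma-trend). A maximum RPKM of at least 4 left 58 members and also gave 27 lower and 9 higher, but not the same genes: Eef2kmt and Eif4g3 were not tested, and Eif2s1 (-0.13, adjusted p = 0.0477) and Eif1ax (0.0483, from limma-trend) passed.

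Same-numbered libraries had correlations of their deviations of -0.02, -0.02 and 0.06. With the replicate number as a block 27 members were lower and 8 higher, the change being Eif2b5 (adjusted p = 0.0550 from limma-trend).

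By the rule of at least 1.8-fold and an unadjusted limma-trend p under 0.05, 1 member was lower (Eef2k) and 1 higher (Eif4g3). The methods also ask for a maximum RPKM of at least 4. With that limit, added after seeing the data, 1 was lower (Eef2k) and 0 higher, since Eif4g3 stays below it. The share of all genes that met these rules was not counted. At 2-fold or more with an adjusted p under 0.05, 2 of 63 members and 1719 of 12507 genes passed. Scaled to Eef1a1, 55 fell, 1 rose and the median was -0.58, against -0.45 over all genes. In that scaling 78 of 85 pathway genes passed, where 61.4% of all genes tested were lower and 10.5% higher. In the deposited scaling 41 of 85 passed, where 56.9% of all genes did. Changes that reversed in sign under Eef1a1 scaling were Eef1akmt1 (-0.43), Eef1b2 (-0.10), Eef1d (-0.34), Eif1 (-0.069), Eif1ax (-0.31), Eif2b2 (-0.40), Eif2b5 (-0.28), Eif2d (-0.44), Eif3c (-0.20), Eif3i (-0.41), Eif3k (-0.19), Eif4a1 (-0.43), Eif4g2 (-0.40) and Eif5a (-0.26). Of these Eef1b2 and Eif1 did not pass as lower (limma-trend adjusted p = 0.0797 and 0.231). The rise of Eif5a2 shrank to 0.05 and did not pass (0.721). These shifts follow from the construction of that scaling, which takes Eef1a1 as constant.

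Depth limits Eif4a3l1, Eif4ebp3 and Eef1akmt4-ece2. Of the 62 members with a transcript 17 share over 10% of their 50-base windows with other genes, and 27 share none.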

Other observations

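Eef1a1 was set beside 12 genes in common use as RT-qPCR references, a list chosen after the data were seen. In these libraries 7 of them rose, 4 fell and 1 did not pass (limma-trend with Benjamini-Hochberg adjustment), where 56.9% of all genes tested passed. Polr2a, the large subunit of RNA polymerase II, went from 3329 ± 51.3 in Scr to 6914 ± 550.0 in MICT1 KO libraries (SD, n = 3), a log2 fold change of 1.05. Actb, Ppia and Rplp0 rose with log2 fold changes of 0.77, 0.70 and 0.63, and Gapdh, Sdha and Ywhaz fell with -0.40, -0.54 and -0.51. The change of Eef1a1, 0.45, lay inside this range. Hprt had 0.18, and Tbp, at 624 ± 40.4 in Scr and 585 ± 24.2 in MICT1 KO libraries, was the only one that did not pass (-0.09, 95% interval -0.27 to 0.09, adjusted p = 0.397 from limma-trend).

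By position, 6 members lie on chromosome 15, and 4 of them fell (Eif3d, Eif3e, Eif3h and Eif4b) while Eef1d and Eif3l did not pass. Of the 500 genes tested on that chromosome 38.0% fell and 25.4% rose, with a median log2 fold change of -0.08, while the 6 members had a median of -0.38. The 4 members on chromosome 2 (Eif2s2, Eif3j1, Eif3m and Eif6) all fell, where 31.5% of 997 genes did. The fall of Eif3j1 cannot be told apart from that of Eif3j2 on chromosome 18. On chromosome 7, with 6 members, 1 fell (Eef2k) and 2 rose (Eif3c and Eif3k), where 21.2% of 921 genes fell and 29.4% rose. These counts were made after the values were seen and were not tested.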
